A study of Mus musculus with 2 samples.

Results

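Apoe, Apoc1, Clu, Lpl, Abca1, Abcg1, Lrp1, Trem2 and Tyrobp are 9 genes of lipoprotein transport and of lipid sensing by myeloid cells, and they were followed here through single-cell RNA counts of mouse brain. They were taken by symbol from the 31053 genes of the count tables, and each symbol had 1 entry. Their levels were measured in 10076 kept cells of sorted brain and 9367 kept cells of total brain.

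Each of the samples is a pool, with 1 sample in each group, so no difference between the samples has a replicate. The sorted brain sample held FACS-sorted cells of male mice aged 3 and 12 months, and no source used here states the sort gate. Unsorted brain made up the other sample: it held cells of pooled male and female mice aged 2 and 24 months, the older age being given as 24 by the title and as 240 by the age label. Both samples mix WT and STING-KO cells, STING being the adaptor that carries the alarm from the sensor of cytosolic DNA. Per the series' design text, mice were grouped in pairs per genotype within the young and the aged, and per the labels' protocols the tissue was dissociated with enzymes at 37 °C. Each count table carries barcode suffixes 1 to 4, and nothing in the sources used here links a suffix to a genotype or an age. The suffixes are therefore shown as a spread within a sample, and no value below compares WT with STING-KO or young with old. Sex, ages and sorting differ together between the samples and cannot be told apart.

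Kept cells held at least 500 genes and at most 10% mitochondrial counts. The summed unique molecular identifiers (UMIs, the counted RNA molecules) of kept cells were 31220601 in sorted and 33498788 in total brain, and the suffixes held between 1092 and 3644 cells. Cells were clustered without the 9 genes and without 132 further genes of the same pathways, so the members did not define the classes in which they were measured. Of 31 clusters, 6 stayed unnamed and the others were named from marker genes, and 22 combinations of class and sample held at least 50 cells. Microglia-like cells made up 43.9% of sorted and 6.17% of total cells, and neuron-like cells were 4 cells of sorted brain and 57.4% of total brain. Cell barcodes shared between suffixes numbered 46 in sorted and 8 in total brain, with 0 shared between the samples.

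A level is the UMIs of a gene per 1000000 UMIs of the class (CPM), with an exact Poisson 95% interval in brackets. Ratios and shares carry exact 95% intervals. All intervals cover counting error only. A gene counts as 2-fold apart between 2 levels when log2 of CPM + 1 differs by at least 1 and both sides together hold at least 10 UMIs.

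The brain makes its own lipoproteins, because plasma lipoproteins do not cross the blood-brain barrier. Astrocytes secrete most of the apolipoprotein E (Apoe), which is loaded with cholesterol and phospholipid by the transporters Abca1 and Abcg1 and taken up by endocytic receptors such as Lrp1. Clusterin (Clu, apolipoprotein J) is another apolipoprotein of brain lipoproteins, apolipoprotein C1 (Apoc1) is a small exchangeable one, and lipoprotein lipase (Lpl) splits triglycerides. Trem2 is a receptor of microglia that binds lipids and lipoproteins, APOE among them, and it signals through the adaptor Tyrobp (DAP12). In mouse models of amyloid deposition, microglia that gain Apoe, Lpl, Spp1 and Cst7 and lose P2ry12 and Tmem119 are known as disease-associated microglia, and Trem2 is needed for the full form of that state.

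Upstream sequence is shown for the 4 of 9 members that had an entry in the promoter table used, among them Apoe and Trem2, which part border macrophages from microglia below. The 250 bases before the annotated start come from RefSeq on GRCm38.p6, read 5′ to 3′ on the gene's own strand. Apoe has 2 further annotated windows, at chr7:19698622-19698871 (with 2 TATAAA) and chr7:19698399-19698648 (with 1 GAGGAA), which are not shown. Capitals mark letters that match GAGGAA (a purine-rich core bound by ETS factors, the family of the myeloid factor PU.1), GGGCGG (the GC box) or TATAAA (the TATA box), each searched on both strands.
Apoe: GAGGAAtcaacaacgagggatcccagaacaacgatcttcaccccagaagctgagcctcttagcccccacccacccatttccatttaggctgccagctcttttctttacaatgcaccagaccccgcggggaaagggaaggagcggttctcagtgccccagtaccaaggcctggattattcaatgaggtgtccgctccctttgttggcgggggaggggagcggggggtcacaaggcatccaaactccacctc
Trem2: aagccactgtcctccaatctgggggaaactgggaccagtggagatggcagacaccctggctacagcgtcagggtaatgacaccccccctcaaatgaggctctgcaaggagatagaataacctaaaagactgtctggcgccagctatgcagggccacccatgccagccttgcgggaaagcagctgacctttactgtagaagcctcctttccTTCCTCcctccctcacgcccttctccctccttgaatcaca
Abca1: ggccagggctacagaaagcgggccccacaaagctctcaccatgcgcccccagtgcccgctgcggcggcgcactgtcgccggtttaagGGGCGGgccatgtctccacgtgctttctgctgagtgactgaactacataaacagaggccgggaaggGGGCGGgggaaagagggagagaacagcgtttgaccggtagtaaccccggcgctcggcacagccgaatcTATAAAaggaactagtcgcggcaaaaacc
Lrp1: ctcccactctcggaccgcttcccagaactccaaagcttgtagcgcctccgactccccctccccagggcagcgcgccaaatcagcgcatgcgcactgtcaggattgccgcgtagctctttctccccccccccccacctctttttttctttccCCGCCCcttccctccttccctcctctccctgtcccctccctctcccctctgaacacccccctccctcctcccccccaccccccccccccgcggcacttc
The Apoe window lies at chr7:19699189-19699438 (minus strand), the Trem2 window at chr17:48346151-48346400 (plus strand), the Abca1 window at chr4:53159896-53160145 (minus strand) and the Lrp1 window at chr10:127621149-127621398 (minus strand). Apoe and Trem2 each held 1 GAGGAA, in Trem2 on the opposite strand (TTCCTC), a motif found in 23.3% of 32851 promoter windows of this length. Abca1 held 2 and Lrp1 held 1 GGGCGG (in Lrp1 as CCGCCC), against 32.7% of windows with at least 1, and Abca1 held the single TATAAA of the 4 windows shown, against 12.4%. These matches describe the letters of the windows only.

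In the gene annotation (GENCODE M21, GRCm38) all 9 members are protein-coding. Apoe (ENSMUSG00000002985) spans 19696109 to 19699188 on chromosome 7 and Apoc1 (ENSMUSG00000040564) spans 19689481 to 19692660, 3448 bases further along the same strand. Tyrobp (ENSMUSG00000030579, chromosome 7, 30413760 to 30417585) lies 126 bases from Hcst, the adaptor DAP10, on the opposite strand. Trem2 (ENSMUSG00000023992, chromosome 17, 48346401 to 48354147) has its relative Treml1 5768 bases away. The others are Clu (ENSMUSG00000022037, chromosome 14), Lpl (ENSMUSG00000015568, chromosome 8), Abca1 (ENSMUSG00000015243, chromosome 4), Abcg1 (ENSMUSG00000024030, chromosome 17) and Lrp1 (ENSMUSG00000040249, chromosome 10).

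Apoe was present in all 22 combinations of class and sample, and its highest level was in border macrophage-like cells of sorted brain, the resident macrophages of meninges, perivascular spaces and choroid plexus. Their level was 35016 CPM [34687 to 35348]. In suffixes 1 to 4 it was 40885, 31168, 28650 and 38002 CPM. Each of these suffix levels was above the level of every other class and suffix with at least 50 cells in either sample. Next in sorted brain came choroid plexus epithelial-like cells, which make cerebrospinal fluid, with 3778 CPM (3561, 3017, 4569 and 4182 in the 4 suffixes). They were followed by the unnamed cluster 12 (led by Prss34, Mcpt8 and Plac8) with 3439, oligodendrocyte-like cells with 3189 and endothelial-like cells with 2482 CPM. B cell-like cells held 1410 CPM (1049, 540, 2108 and 1728) and microglia-like cells 1258 CPM [1235 to 1281]. The lowest sorted levels were those of NK cell-like cells (266 CPM) and T cell-like cells (263 CPM), and these neighbours did not differ beyond counting error.

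In total brain the order was different, with microglia-like cells leading at 8181 CPM [8082 to 8281], followed by astrocyte-like cells at 4996 and fibroblast-like cells at 4055. Choroid plexus epithelial-like cells (2810), oligodendrocyte precursor-like cells (2451), cluster 19 (1812, mural and endothelial markers together), endothelial-like (1304) and oligodendrocyte-like cells (1289) lay between. Neuron-like cells were lowest with 288 CPM. The microglial lead rested on suffixes 1 and 2, as given below, and astrocyte-like cells were above microglia-like cells in suffixes 3 and 4. Astrocyte-like cells held 10033, 6219, 3571 and 4015 CPM in suffixes 1 to 4, and all of these were above all suffix levels of neuron-like cells (553, 580, 231 and 205).

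**Figure D1:**
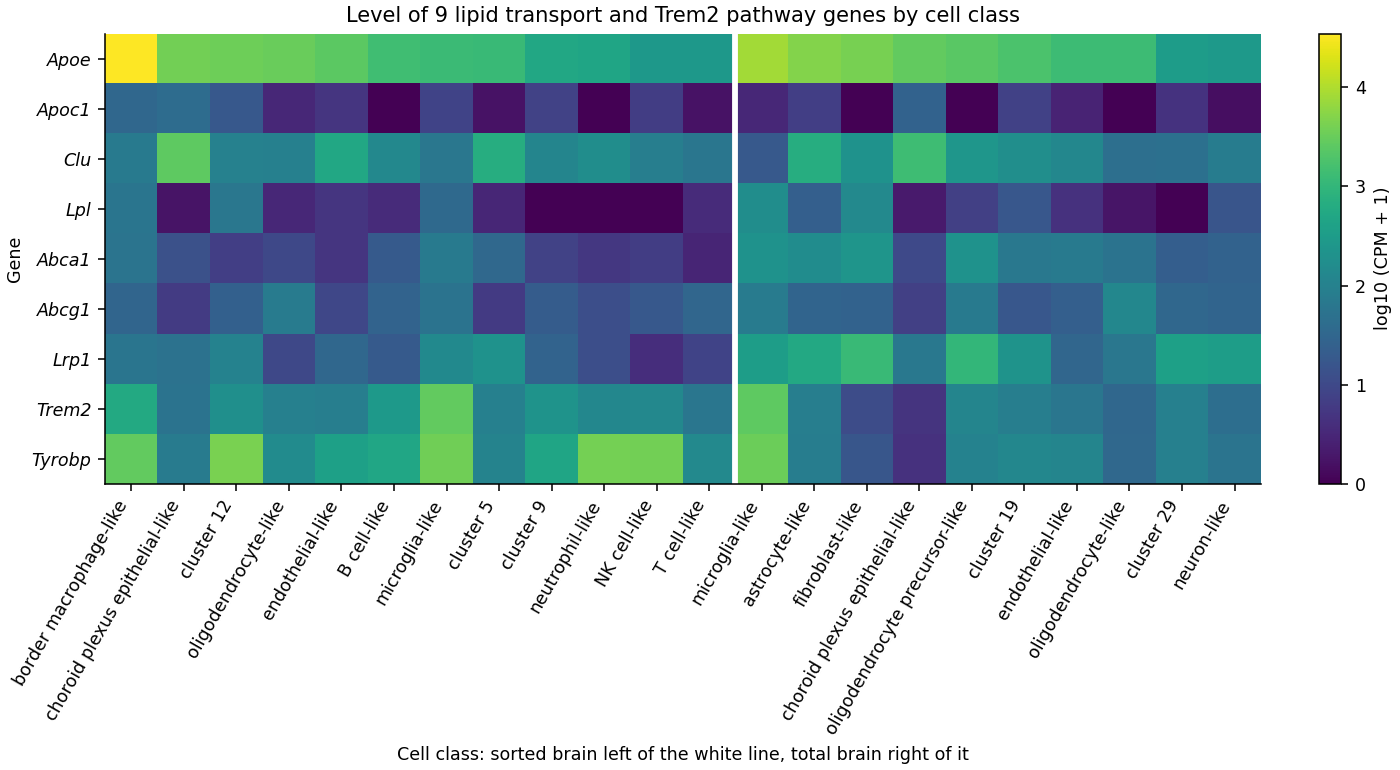
Level of each of the 9 genes (rows) in each class of at least 50 cells (columns, ordered within each sample by the Apoe level), with colour as log10 of CPM + 1. Apoe is brightest in border macrophage-like cells of sorted brain at 35016 CPM, Clu in choroid plexus epithelial-like cells, and Trem2 in microglia-like cells of both samples.

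Apoe UMIs also turned up in cells that are not known as sources, and in barcodes that failed the cell filter. Barcodes removed by the filter held 2219 CPM of Apoe in sorted and 2225 CPM in total brain, which is above the level of sorted microglia-like cells and of neuron-like cells. With each cell thinned to 1000 UMIs, 22.6% of T cell-like and 20.8% of neuron-like cells had an Apoe UMI, against 35.0% of sorted and 33.4% of total microglia-like cells. Without thinning the shares were 42.0%, 33.0%, 51.4% and 54.2%, at median depths of 2140, 1441, 2029.5 and 4464 UMIs. Thinned shares were 79.8% in border macrophage-like, 80.9% in astrocyte-like and 89.0% in sorted choroid plexus epithelial-like cells. The part of free RNA in the low levels was not tested.

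Apoc1, which lies next to Apoe, was a low gene with another distribution. Its highest level in both samples was in choroid plexus epithelial-like cells, at 38.6 CPM in sorted (39.8, 41.9, 41.2 and 28.5 in the suffixes) and 25.4 CPM in total brain. Border macrophage-like cells held 31.5 CPM, with 121 CPM in suffix 1 and 3.76, 0 and 5.23 CPM in the others. Only 6 of the 388 cells had an Apoc1 UMI, and the 36 UMIs of suffix 1 came from 3 of its 79 cells. Sorted microglia-like cells held 7.16 CPM with suffix 4 highest at 24, and total microglia-like cells held 7 UMIs in all (2.18 CPM). No Apoc1 UMI was counted in B cell-like and neutrophil-like cells of sorted brain or in fibroblast-like, oligodendrocyte precursor-like and oligodendrocyte-like cells of total brain. A count of 0 allows up to 3 counts, which is 2.00 CPM in B cell-like, 6.80 CPM in neutrophil-like and 15.3 CPM in fibroblast-like cells.

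Clu followed the choroid plexus and astrocytes. Choroid plexus epithelial-like cells of sorted brain held 2618 CPM (2864, 2539, 2596 and 2292), and those of total brain 1367 CPM (1401, 1701, 954 and 1315). Astrocyte-like cells held 691 CPM (888, 597, 627 and 756), about level with the unnamed cluster 5 of sorted brain at 686 CPM, which was led by Nov and Mgp. Microglia-like cells were among the lowest classes, with 61.4 CPM in sorted and 17.5 CPM in total brain, the former close to T cell-like cells at 59.6 CPM.

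Lpl, the lipase, had its highest level in microglia-like cells of total brain, with 169 CPM [155 to 184]. The 4 suffixes there held 585, 76.8, 33.3 and 17.3 CPM, so suffix 1 carried the lead. Sorted microglia-like cells held 35.0 CPM with little spread (29.0, 37.2, 40.8 and 44.0). Fibroblast-like cells held 138 CPM from 27 UMIs, cluster 12 held 63.6 CPM and border macrophage-like cells 57.3 CPM (16.8, 0, 30.8 and 149). Choroid plexus epithelial-like cells had almost none (0.757 and 1.15 CPM), and neutrophil-like and NK cell-like cells had 0 UMIs, which allows up to 6.80 and 8.58 CPM. Astrocyte-like cells held 23.2 CPM, with suffix 1 again highest (129, 30.02, 4.36 and 2.48).

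The cholesterol exporter Abca1 was highest in fibroblast-like (229), microglia-like (207) and oligodendrocyte precursor-like cells (206 CPM) of total brain, which did not differ beyond counting error, followed by astrocyte-like cells at 164 CPM. Border macrophage-like cells held 54.9 and neuron-like cells 26.0 CPM. Choroid plexus epithelial-like cells, high in Apoe and Clu, held only 12.3 CPM in sorted and 9.23 CPM in total brain. Its relative Abcg1 was highest in oligodendrocyte-like cells of total brain, at 125 CPM (140, 120, 124 and 125), then in those of sorted brain (78.3) and in microglia-like cells of total brain (75.5). Choroid plexus epithelial-like cells were low in Abcg1 too, at 5.15 and 6.35 CPM.

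The endocytic receptor Lrp1 was highest in fibroblast-like cells, at 1202 CPM [1054 to 1366], and in oligodendrocyte precursor-like cells at 1007 CPM (1363, 1095, 863 and 1000). Astrocyte-like cells held 543 CPM (495, 432, 538 and 639), and neuron-like (337) and microglia-like cells of total brain (335 CPM) were level. In sorted brain the leading named class was microglia-like cells with 142 CPM, below the 206 CPM of the unnamed cluster 5. T cell-like cells held 7.21 CPM.

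Trem2 was highest in microglia-like cells of both samples, well above any other class. Microglia-like cells held 2844 CPM [2810 to 2878] in sorted brain (3218, 2320, 3090 and 2988) and 2597 CPM [2542 to 2654] in total brain (3039, 2841, 2391 and 2299). The ranges of the suffixes overlapped between the samples. The next class of sorted brain, border macrophage-like cells, held 584 CPM (740, 545, 588 and 486), and the next of total brain, oligodendrocyte precursor-like cells, held 114 CPM. After thinning, 91.5% of sorted and 86.5% of total microglia-like cells had a Trem2 UMI, against 42.1% of border macrophage-like, 4.30% of T cell-like and 3.66% of neuron-like cells. Without thinning the shares were 97.9%, 95.3%, 62.9%, 9.58% and 6.29%.

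Tyrobp, the signalling adaptor that serves many receptors of myeloid and NK cells, was shared across those lineages. Cluster 12 held 4255, neutrophil-like 3857, NK cell-like 3782, sorted microglia-like 3648, total microglia-like 3273 and border macrophage-like cells 2841 CPM. Other lymphoid cells were lower, B cell-like cells with 489 CPM and T cell-like cells with 136 CPM. The number of Trem2 UMIs per Tyrobp UMI was 0.780 in sorted and 0.794 in total microglia-like cells, 0.206 in border macrophage-like, 0.034 in NK cell-like and 0.033 in neutrophil-like cells. In classes with little of both genes it ranged from 0.221 in sorted endothelial-like cells to 1.13 in oligodendrocyte precursor-like cells, with 0.687 in sorted choroid plexus epithelial-like and 0.756 in neuron-like cells.

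Microglia-like cells were then compared between total and sorted brain. They were 578 cells of total brain (128, 103, 178 and 169 in suffixes 1 to 4, 3205887 UMIs) and 4420 cells of sorted brain (9358404 UMIs). All 10 microglial markers were raised in each of the 4 clusters that made up the class. When total brain was clustered alone, no cluster was named microglia-like, because markers of other classes were raised or leading beside the microglial ones. The clusters that held most of the class were not the same: clusters 2, 3 and 10 in sorted brain with 1831, 2093 and 494 cells, and clusters 24 and 3 in total brain with 437 and 125 cells. Of the 9 members, 6 were 2-fold apart, and across all 12863 genes tested the share was 28.4%. Apoe, Lpl, Abca1 and Lrp1 were higher in total brain (24.3% of all genes) and Clu and Apoc1 were higher in sorted brain (4.06%). The median log2 ratio was 0.52 over the members and 0.20 over all genes.

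Apoe in microglia-like cells was 19723, 17897, 714 and 562 CPM in suffixes 1 to 4 of total brain and 1163, 1058, 971 and 2621 CPM in those of sorted brain. Suffixes 1 and 2 of total brain were above, and suffixes 3 and 4 below, every suffix of sorted brain, so the ranges overlapped. Within sorted brain, suffix 4 also had the most mast cell marker RNA in these cells (70.7, 0.287, 13.9 and 368 CPM over the list), whose part in the Apoe level was not tested. The summed ratio was 6.50 [6.36 to 6.65], a log2 ratio of 2.70. It was 1.84 without suffix 1 of total brain and 3.18 without suffix 3. Lpl had a log2 ratio of 2.24, which was 0.08 without suffix 1 of total brain, so that suffix alone put Lpl past 2-fold.

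Abca1 and Lrp1 differed in another way, with all suffixes of total brain above all suffixes of sorted brain. Abca1 was 175, 203, 238 and 205 CPM in total and 73.6, 74.5, 54.8 and 70.9 CPM in sorted brain, a ratio of 2.90 [2.60 to 3.24] and a log2 ratio of 1.52. Lrp1 was 293, 307, 336 and 387 CPM in total and 137, 148, 125 and 156 CPM in sorted brain, a ratio of 2.36 [2.18 to 2.56] and a log2 ratio of 1.23. Ranges of the suffixes that lie apart at 2-fold or more were seen for 20.2% of all genes. Abcg1 also had ranges apart, with a smaller log2 ratio of 0.52, which put 4 of the 9 members in that state, Clu included, against 34.6% of all genes.

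Within cluster 3, which both samples share, the Abca1 ratio did not hold: the levels were 68.7 CPM in total and 73.9 CPM in sorted brain, a log2 ratio of −0.10, Lrp1 had 0.82 and Clu −0.76. Apoe had a log2 ratio of 4.65 in that cluster (24199 against 966 CPM) and Lpl 4.00, so 2 members were 2-fold apart there. The share of all genes apart within the cluster is not given, so that count cannot be set against a background. Its levels are not split by suffix either, and over the whole class the high Apoe of total brain lay in only some suffixes, as given above. With TMM scaling, which lowers all log2 ratios of microglia-like cells by 0.38, Lrp1 had 0.86 and was no longer 2-fold apart.

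Clu was lower in total brain, at 22, 5.48, 25 and 13 CPM against 69.1, 43.0, 87.3 and 68.9 CPM, with a log2 ratio of −1.76 and ranges apart. Choroid plexus RNA moved with it: Ttr, the transthyretin of the choroid plexus, was at 8692 CPM in sorted and 485 CPM in total microglia-like cells, and the whole choroid plexus marker list was at 8941 and 541 CPM. The part of that RNA in the Clu and Apoc1 ratios was not tested. Apoc1 had a log2 ratio of −1.36 from 7 and 67 UMIs, which was −0.95 without suffix 4 of sorted brain and −0.49 with 10 CPM added in place of 1, no longer 2-fold. Trem2 and Tyrobp, with log2 ratios of −0.13 and −0.16, had suffix ranges that overlapped between the samples.

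**Figure D2:**
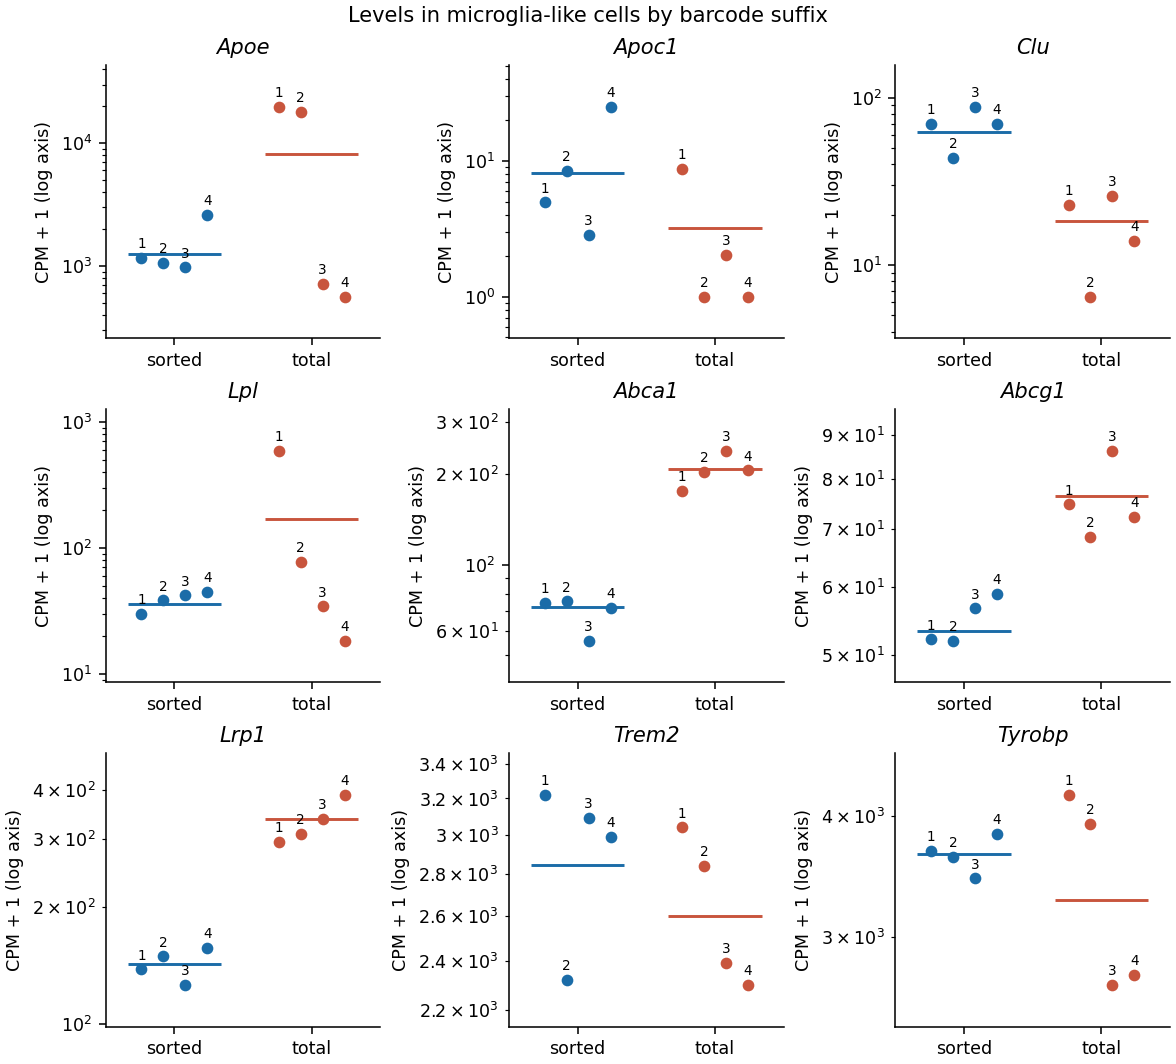
Level of each gene in microglia-like cells (CPM + 1, log axis) for the 4 barcode suffixes (numbered points) of sorted brain (blue) and total brain (red), with the level of all cells as a line. Apoe in total brain runs from 562 to 19723 CPM, whereas Abca1 and Lrp1 form separate groups by sample.

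Within total brain, Apoe, Lpl, Trem2 and Tyrobp of microglia-like cells had their 2 highest values in suffixes 1 and 2, while Abca1 and Lrp1 had their lowest value in suffix 1. Tyrobp was 4200, 3923, 2673 and 2738 CPM. The other genes of the disease-associated state (12 genes of the list found, the members left out) summed to 13127, 6411, 2336 and 2119 CPM, and the homeostatic list to 8507, 9728, 14277 and 14946 CPM. Spp1, which encodes osteopontin, was at 5401, 654, 9.36 and 5.404 CPM, and Cst7, which encodes the protease inhibitor cystatin F, at 293, 159, 9.36 and 5.404 CPM. All 8 border macrophage markers summed to 216, 228, 295 and 365 CPM, most of it from Stab1 (155, 183, 279 and 343 CPM). The other 7 markers summed to 60.9, 45.7, 16.6 and 22.7 CPM, so they were higher in suffixes 1 and 2, as Apoe was. Ms4a7 made up most of that, at 55.7, 42.0, 0 and 6.49 CPM, while the scavenger receptor gene Mrc1 stood at 0, 3.66, 9.36 and 7.57 CPM, and Cd163, Lyve1, F13a1 and Cbr2 had 0 UMIs in every suffix. With total brain clustered alone, a cluster of 190 cells, 127 of them microglia-like here, had all 8 border macrophage markers raised and 25670 CPM of Apoe. The part of border macrophages in the microglial Apoe level was not tested.

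Higher Apoe in suffixes 1 and 2 of total brain was not limited to microglia-like cells. Oligodendrocyte precursor-like cells (4410, 4831, 1327 and 1962 CPM), oligodendrocyte-like cells (2639, 2154, 938 and 869 CPM), astrocyte-like, neuron-like and choroid plexus epithelial-like cells (3018, 4152, 1549 and 2112 CPM) had the same 2 suffixes highest. Endothelial-like cells showed less spread (1254, 1647, 1278 and 1264 CPM), and cluster 19 had suffix 3 highest and suffix 1 lowest. The removed barcodes held 2669, 3426, 1830 and 1687 CPM. The share of barcodes kept was 50%, 56.7%, 69.1% and 68.4%. The spread between the highest and the lowest suffix was 35.1-fold in microglia-like cells, against 2.81-fold in astrocyte-like and 2.83-fold in neuron-like cells. Trem2 of oligodendrocyte precursor-like cells was also highest in suffix 1, at 520 CPM against 16.3 to 94.4 CPM in the others, from 21 UMIs in 23 cells.

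Apoe was spread very unevenly over single microglia-like cells. Among cells thinned to 1000 UMIs, 65.05% of 4174 sorted and 66.6% of 554 total cells had no Apoe UMI, while 0.791% and 7.40% had 20 or more. Cells too shallow for thinning, 246 in sorted and 24 in total brain, were left out. Those 41 cells of total brain held 86.8% of the Apoe UMIs of their class, and the 33 such cells of sorted brain held 35.4%. Trem2 was more even, with the top 10% of cells holding 33.5% of the Trem2 UMIs in total brain, against 94.6% of those of Apoe. The shares with 20 or more were 19.5% [12.8 to 27.8] and 16.2% [9.53 to 24.9] in suffixes 1 and 2 of total brain, and 0.578% and 0.610% in suffixes 3 and 4. In sorted brain they were 0.5%, 0.574%, 0.686% and 2.17%. The ranges cut a continuous value: 22 sorted and 14 total cells held 15 to 24 Apoe UMIs and lay near the upper limit. In suffixes 3 and 4 of total brain, 22.5% and 20.7% of microglia-like cells had any thinned Apoe UMI, little above the 18.7% and 15% of neuron-like cells of the same suffixes.

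**Figure D3:**
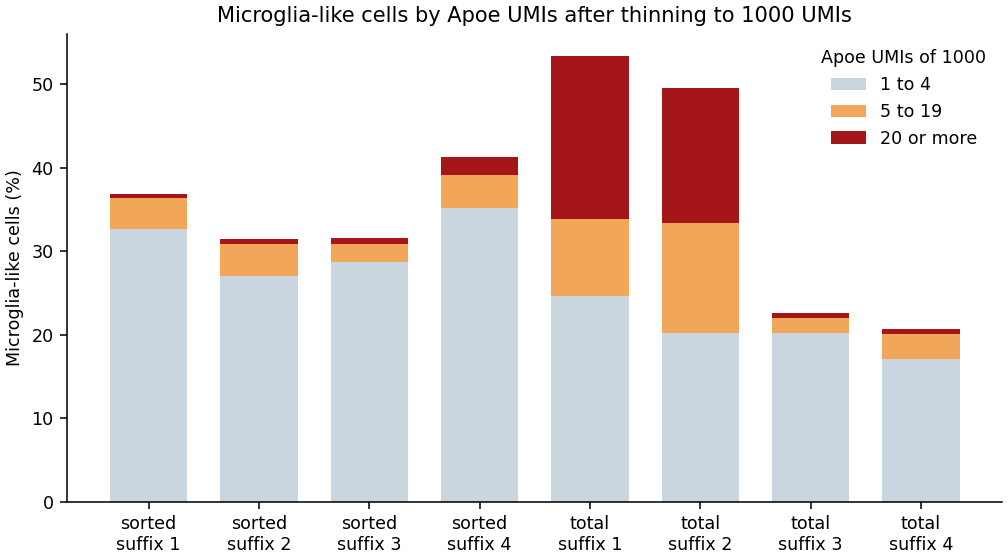
Share of microglia-like cells (%) with 1 to 4, 5 to 19 or 20 or more Apoe UMIs after thinning each cell to 1000 UMIs, for the 4 suffixes of each sample, the remaining cells having 0. Cells with 20 or more reach 19.5% and 16.2% in suffixes 1 and 2 of total brain and at most 2.17% in any other suffix.

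Other genes were read in the same ranges per 1000000 UMIs other than Apoe, as a description of cells grouped by their Apoe. In total brain, Lpl was at 1085 in cells with 20 or more Apoe UMIs and at 34.2 in cells with 0. Spp1 was at 12626 against 92.4, Cst7 at 717 against 8.17, and the fatty acid binding protein gene Fabp5 at 864 against 15.3. The homeostatic genes P2ry12 (279 against 2460) and Tmem119 (212 against 1478) were lower. The disease-associated list summed to 26014 against 2635.

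The ranges did not hold the same suffixes. Of the 41 cells with 20 or more, 23 and 16 were in suffixes 1 and 2, whereas of the 369 with 0, 134 and 130 were in suffixes 3 and 4. Within suffix 1, chosen after seeing the data, Lpl was at 1529 in the 23 cells against 89.9 in 55 cells with 0, the disease-associated list at 31342 against 4968 and P2ry12 at 228 against 2062. Within suffix 2, Lpl was at 138 in the 16 cells against 0 in 50 cells, the disease-associated list at 15402 against 2599 and P2ry12 at 295 against 2353. The direction was thus the same inside each of these suffixes, and Spp1 differed most between them, at 17181 in the high cells of suffix 1 and 3023 in those of suffix 2.

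In total brain the signalling genes differed less, and the efflux and uptake genes the other way. Trem2 was at 3639 in the cells with 20 or more and 2393 in those with 0, and Tyrobp at 6012 against 2788. Abca1 was at 138 against 217 and Lrp1 at 226 against 360. Within suffix 1 Abca1 was at 103 against 228 and Lrp1 at 215 against 356, from 24 and 50 UMIs in the 23 high cells. Within suffix 2 they were at 187 against 258 and at 246 against 312, from only 19 and 25 UMIs in the 16 high cells. The border macrophage list summed to 306 in both ranges, but without Stab1 its 7 other markers were at 215 against 11.7. Ms4a7 gave 66 of those 73 UMIs, at 194 against 1.53, with Mrc1 at 8.82 against 6.64 and Pf4 at 11.8 against 3.57. The part of border macrophages in these differences was not tested. Median depths were 6500 and 5029 UMIs.

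Sorted brain had the same direction for Lpl, Spp1 and P2ry12, and it differed in Trem2 and Abca1. Lpl was at 167 against 24.9, Spp1 at 1417 against 4.43 and P2ry12 at 1809 against 4635. By suffix, the cells with 20 or more held 0, 180.5 and 314 of Lpl and 90.5, 36.1 and 4557 of Spp1 in suffixes 1, 2 and 4 (8, 8 and 13 cells), so the Spp1 value rested on suffix 4 and no Lpl UMI was counted in those of suffix 1. Apoc1 was at 488 in the 33 cells with 20 or more Apoe UMIs and at 1.53 in cells with 0, whereas in total brain it was at 17.6 against 0. Trem2 was at 2762 against 2833, and Tyrobp at 5595 against 3577. Abca1 was at 107 against 66.6 and Lrp1 at 119 against 146, from 9 and 10 UMIs in the 33 cells. The border macrophage list was at 143 against 185, and without Stab1 at 35.7 against 8.01, from 3 UMIs in the 33 cells.

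**Figure D4:**
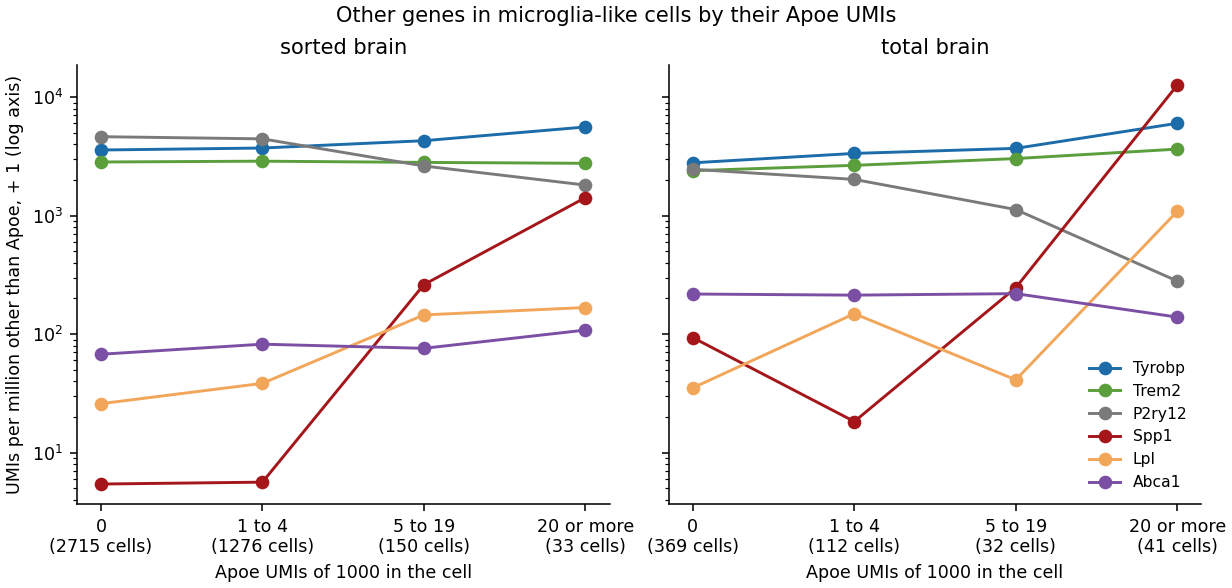
Level of 6 genes in microglia-like cells (UMIs per 1000000 UMIs other than Apoe, + 1, log axis) by the Apoe UMIs of the cell after thinning to 1000 (x axis, with the number of cells), in sorted and total brain. Spp1 and Lpl are highest in cells with 20 or more Apoe UMIs and P2ry12 lowest there, while Trem2 stays between 2393 and 3639.

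Clustering the microglia-like cells again, without the members, gave 6 sub-clusters that held nearly only cells of 1 sample. Sub-cluster 4 (117 cells of total brain) had the highest Apoe, 18961 CPM, with 320 CPM of Lpl, 3412 CPM of Trem2 and 6586 CPM of Tyrobp. Its Apoe was 36067, 31846, 288 and 532 CPM in suffixes 1 to 4, and 6 of the 12 disease-associated genes were raised in it. Its 8 leading genes also held AY036118, Lars2 and mt-Nd4l, transcripts tied to ribosomal and mitochondrial RNA, whose part in the levels was not tested. Its median depth was 1831 UMIs, against 6473 in sub-cluster 5 (453 cells of total brain), which held 7112 CPM of Apoe (17752, 16110, 752 and 564). Both sub-clusters thus had their high Apoe in the same suffixes. Sub-cluster 5 held more Abca1 and Lrp1 (224 and 349 CPM) than sub-cluster 4 (47.8 and 213 CPM).

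Of the sorted sub-clusters, number 2 (199 cells) led with 4868 CPM of Apoe, 278 CPM of Lpl and 5969 CPM of Tyrobp. It was led by the mast cell protease genes Tpsb2, Cma1 and Mcpt4, together with Mmp12 and Lgals3, and the part of mast cell RNA in its levels was not tested. In it, 92 and 87 of its cells carried suffixes 1 and 2. Those cells held 4260.5 and 4922 CPM of Apoe and 192 and 202 CPM of Lpl. The summed Lpl of 278 CPM was above both values, so it was raised by the few cells of the other suffixes. Over all sorted microglia-like cells, the mast cell marker list was at 70.7 CPM in suffix 1 and 0.287 CPM in suffix 2. Of the 12 disease-associated genes, 3 were raised in sub-cluster 2. Sub-cluster 0 (2007 cells, cytokine and immediate early genes) held 1537 CPM of Apoe and sub-cluster 3 (73 cells, interferon genes) 1262 CPM. Sub-cluster 1 (2140 cells, P2ry12 among its leading genes) was lowest for Apoe at 698 CPM and for Lpl at 15.9 CPM, with the highest sorted Trem2 at 3019 CPM.

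Border macrophage-like and microglia-like cells of sorted brain came from the same libraries, so their comparison does not cross samples. Of the 9 members, 4 were 2-fold apart, against 30.6% of 12145 genes. Apoe was 27.8-fold higher [27.3 to 28.4] in border macrophage-like cells, a log2 ratio of 4.80, and Apoc1 was higher by 1.99. Trem2 had a log2 ratio of −2.28 and Lrp1 −1.29. At clustering resolution 0.5 Lrp1 had −0.93, no longer 2-fold, and Abca1 had −1.12. Genes at least 2-fold higher in border macrophage-like cells were 8.64% of all, and 22% were higher in microglia-like cells. The median was −0.36 over the members and −0.39 over all genes.

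Among the members 2-fold apart, the suffix ranges did not overlap for Apoe, Trem2 and Lrp1, as for 21.3% of all genes at 2-fold or more. Trem2 was between 486 and 740 CPM in border macrophage-like cells and between 2320 and 3218 CPM in microglia-like cells. Tyrobp, its partner, was closer at 2841 and 3648 CPM, a log2 ratio of −0.36, with suffix ranges that also lay apart. The Apoc1 ratio rested on 3 cells of suffix 1 with 36 UMIs, and it was −1.30 without that suffix. The Lpl log2 ratio of 0.69 was −1.01 without suffix 4 and 1.09 without suffix 2. Abca1 (−0.37) and Clu (0.21) were within 2-fold, and Abcg1 had −0.83 with ranges apart. At any fold, ranges lay apart for 32.6% of all genes.

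Border macrophage-like cells were themselves mixed for Apoe. All 8 markers of the class were raised, but class II genes (H2-Eb1, H2-Ab1, H2-Aa, Cd74) and the dendritic cell gene Cd209a were among the 10 leading genes too. Per 10000 UMIs the median cell held 386 Apoe UMIs, the lower quartile was 17.2 and the upper quartile 719. After thinning, 62.6% of cells held 20 or more Apoe UMIs.

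**Figure D5:**
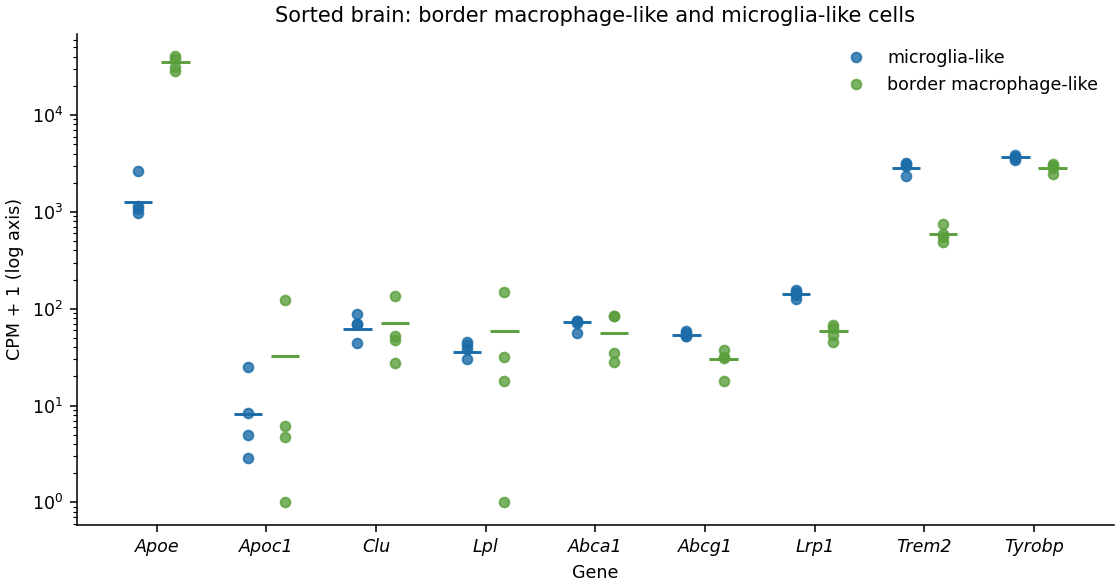
Level of the 9 genes in sorted brain (CPM + 1, log axis) in microglia-like (blue) and border macrophage-like cells (green), with 1 point per barcode suffix and a line for the level of all cells. Apoe is 27.8-fold higher and Trem2 lower in border macrophage-like cells with no overlap of the suffixes, while Apoc1 and Lpl vary between suffixes from 0 to 121 and from 0 to 149 CPM.

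Astrocyte-like cells were set against neuron-like cells in total brain. Of the 9 members, 5 were at least 2-fold higher in astrocyte-like cells, against 13.5% of 16212 genes, and none was lower. Apoe was 17.4-fold higher [16.7 to 18.1], and the log2 ratios were 4.11 for Apoe, 3.07 for Clu and 2.61 for Abca1. Apoc1 (2.24) and Trem2 (1.03) also passed 2-fold, Apoc1 from 15 and 5 UMIs and Trem2 with suffix ranges that overlapped. The other 4 had suffix ranges apart, as did 17.8% of all genes at 2-fold or more. Lrp1, the receptor for uptake, was closer, at 543 against 337 CPM (0.68). Abcg1 was level (28.3 and 27.7 CPM). Either way, 24.6% of genes were 2-fold apart.

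In choroid plexus epithelial-like cells, 2 of the 9 members were 2-fold apart between samples, against 27.9% of 12642 genes. These were Trem2 (3.75 CPM in total and 52.3 in sorted, log2 ratio −3.49) and Tyrobp (3.46 and 76.0, −4.11), both lower in total brain, as were 3.33% of all genes. Suffix ranges lay apart for these genes, for Clu and for Abca1, and for 36.3% of all genes. The share of microglia-like cells, given above, was also lower in total brain, and its part was not tested. The apolipoproteins of the class were within 2-fold, with log2 ratios of −0.94 for Clu, −0.59 for Apoc1 and −0.43 for Apoe. With TMM scaling these became −1.52, −1.15 and −1.01, and 5 members were then apart.

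Oligodendrocyte-like cells rested on different clusters in the samples, cluster 13 in sorted brain (149 of 151 cells) and cluster 20 in total brain (556 of 674 cells). Of the 7 members that could be compared, 6 were 2-fold apart, against 48% of 11762 genes. Abca1 (2.50) and Lrp1 (2.73) were higher in total brain, which 42.1% of all genes were, and Apoe (−1.31), Clu (−1.05), Trem2 (−1.55) and Tyrobp (−2.21) were higher in sorted brain, as 5.95% were. In sorted cells Abca1 and Lrp1 rested on 4 UMIs each. The Clu call was lost in 7 alternatives that kept its sign, among them equal weight per suffix (−0.23) and leaving out suffix 4 of total brain (−0.79). With each sample clustered alone Apoe had −0.95 and Trem2 −0.66, Trem2 had −0.82 with called doublets removed, and Lrp1 had 0.16 at resolution 0.5. Within cluster 13 alone the Lrp1 ratio was −0.13, with 6.12 CPM in total and 6.78 CPM in sorted cells. Abcg1 was 141 against 81.4 CPM in cluster 13. Apoe was 1419 against 3310 CPM, and Trem2 had 0 UMIs in total against 97.2 CPM in sorted cells.

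Endothelial-like cells (121 sorted and 767 total) had 4 of the 9 members 2-fold apart, against 47.8% of 13049 genes. Clu was lower in total brain (127 against 519 CPM, log2 ratio −2.02), and so was Tyrobp (−1.72), against 8.95% of all genes. Abca1 was higher (3.87) and so was Abcg1 (1.38), from 1 and 2 UMIs in sorted cells, against 38.9% of all genes. Abcg1 was within 2-fold without suffix 2 (0.98) or suffix 3 (0.96) of sorted brain and with 10 CPM added (0.86). The interval of the Abca1 ratio, 3.22 to 714, shows how little the sorted cells say about it. In suffixes 3 and 4 of total brain, Abca1 of these cells was 89.8 and 77.4 CPM, above the 22.1 and 25.8 CPM of suffixes 1 and 2.

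The wider pathway was described with 7 lists. For microglia-like cells, total over sorted, the list of sterol efflux and its regulators had a median of 1.10, against 0.20 for all genes. Of its 17 genes, 10 were at least 2-fold higher in total brain and 0 lower, against 24.3% and 4.06% of all genes. Among them were the transporter gene Abca9 (log2 ratio 1.75), Npc1, which moves cholesterol out of lysosomes (1.10), and Rxrb, a partner of the sterol-sensing nuclear receptors (1.04). Of 15 lipoprotein receptor genes, 6 were higher, among them Lrp6 (2.20) and Sort1 (1.28), and Lrp10 had 0.32. Of 23 genes of TREM2 and DAP12 signalling, 4 were higher and 1 lower, which is below and near the 24.3% and 4.06% of all genes. These held the adaptor Grb2 (2.24), the kinase Syk (1.25), which is recruited to DAP12, and Adam10, a protease that can shed TREM2 (1.15).

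Lipid droplet and fatty acid genes had 3 of 12 higher, near the share of all genes. Fabp5 led them, at 131 against 7.80 CPM (3.90), while the acyl-CoA synthetase gene Acsl5 had −0.55. In total brain, 294 Fabp5 UMIs were in the 41 cells with 20 or more Apoe UMIs, against 30, 17 and 76 in the lower ranges. Of those 41 cells, 23 and 16 were in suffixes 1 and 2. Of 22 sterol synthesis genes, 4 were higher and 0 lower, below those shares. The 2 of them that reached 50 CPM were lower within 2-fold, Insig2 with −0.82 and Ebp with −0.46. Lipases had 0 of 10 higher and 1 lower, with Mgll at 0.30, Pnpla2 at −0.17 and Lipa at −0.11. Other apolipoproteins were hardly present, with 2 of 11 tested and 1 higher.

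Against microglia-like cells, border macrophage-like cells had 8 of 22 sterol synthesis genes higher and 1 lower, against 8.64% and 22% of all genes, with a list median of 0.52 against −0.39. Srebf2, the master regulator of sterol synthesis, had 1.35 and the synthase gene Fdps 1.28, whereas Insig2, which holds back that regulator, had −1.53. Scavenger receptors were higher, with Cd36 at 5.49 and Msr1 at 4.57, and Scarb2 was lower with −1.02, so the receptor list had 3 higher and 3 lower of 14, the latter near the share of all genes. The phospholipid transfer protein gene Pltp had 4.32 and Mgll −3.73, in a lipase list with 1 higher and 4 lower of 9, where Pnpla2 had −0.94.

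Of 24 genes of TREM2 and DAP12 signalling, 8 were lower in border macrophage-like cells and 1 higher, against 22% and 8.64% of all genes. Siglech, itself a marker used to name microglia-like cells, had −2.86, the colony stimulating factor receptor gene Csf1r −1.85 and the integrin gene Itgam −1.60. Efflux genes had 2 higher and 5 lower of 16, not far from the shares of all genes, with Mylip at −1.93, Npc1 at −1.38 and Stard3 at −1.37. Lipid droplet genes had 5 higher and 0 lower of 12, among them the droplet coat gene Plin2 (1.43), with Acsl5 at 0.25. Both other apolipoproteins tested were higher.

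Astrocyte-like cells had 11 of 22 sterol synthesis genes higher than neuron-like cells and 0 lower, against 13.5% and 11.1% of all genes, with a median of 1.01 against −0.02. Srebf1 had 3.24, Msmo1 2.45 and Insig1 1.82. Lcat, which esterifies cholesterol on lipoproteins, had 4.38 and Pltp 1.40, in a list with 5 of 10 higher. Lipid droplet and fatty acid genes had 9 higher and 1 lower of 17, led by Fabp7 (4.57), Acsl3 (3.45) and Fabp5 (1.79). Among efflux genes, 5 of 19 were higher, with Soat1 at 2.11 and Npc2 at 1.48, and 1 was lower. That was Cyp46a1, the neuronal cholesterol 24-hydroxylase, with −1.47. Receptors had 4 higher and 1 lower of 16, with Lrp10 at 1.45. TREM2 and DAP12 signalling genes had 10 of 21 higher, with Csf1r, a gene of microglia and macrophages, at 1.08. In suffixes 1 to 4, astrocyte-like cells held 275, 95.7, 64.3 and 42.2 CPM of Trem2, and 359, 95.7, 32.7 and 31.0 CPM of Tyrobp. The part of microglial RNA in these levels was not tested.

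In choroid plexus epithelial-like cells, 12 of 21 TREM2 and DAP12 signalling genes were lower in total brain and 2 higher, against 3.33% and 24.6% of all genes, with a median of −1.19 against 0.44. Csf1r was at 5.19 against 51.7 CPM (−3.09), moving with Trem2 and Tyrobp there, while the adaptor Grb2 had 1.92. Efflux genes had 6 of 19 higher, near the share of all genes, with Abca2 at 1.10, and sterol synthesis genes had 2 of 22, below it, with Idi1 at 1.02 and Hmgcs1 at 1.00. None of the 4 other apolipoproteins tested was 2-fold apart.

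Across classes, the highest genes of the lists had their own places. Apod, an apolipoprotein of the lipocalin family, reached 16347 CPM in fibroblast-like cells, and Pltp reached 3046 CPM in sorted and 3019 CPM in total endothelial-like cells. Npc2, the soluble partner of Npc1, reached 1233 CPM in border macrophage-like cells. The transporter gene Abca2 reached 925 CPM in oligodendrocyte-like cells of total brain, and Fabp5 reached 911 CPM in those of sorted brain. Sorl1, a sorting receptor, reached 356 CPM in the unnamed cluster 29, which was led by Kit. Hcst, next to Tyrobp, was highest in T cell-like cells at 937 CPM, where Tyrobp was at 136 CPM.

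Likeness of pattern was measured as Pearson's r of log2(CPM + 10) over the 22 combinations of class and sample, among 10007 genes. The points share libraries, depth and free RNA, so the values are descriptions. Trem2 was most like the complement genes C1qa (0.98) and C1qc (0.98), and Tyrobp was most like Fcer1g (0.99), Fcgr3 (0.93) and Plek (0.92). Clu was most like Fxyd1 (0.96), Clybl (0.86) and Cox6b2 (0.86), and Apoc1 most like Aqp1 (0.74), Alkbh7 (0.71) and Capsl (0.68). Apoe had no close partner, with Lamp2 (0.70), Psap (0.66) and Prdx4 (0.66) nearest.

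The remaining members had near neighbours in pattern. Lpl was most like Lacc1 (0.86), Tep1 (0.84) and Abca9 (0.83), and Abca1 most like Man1c1 (0.90), Peli2 (0.89) and Arhgef40 (0.89). Abcg1 was most like Dock10 (0.91), Pip4k2a (0.88) and Bin1 (0.87), and Lrp1 most like Arhgef10l (0.91) and Plxnb2 (0.89). Between members, r was 0.80 for Trem2 with Tyrobp, 0.78 for Abca1 with Lrp1 and 0.60 for Apoe with Lpl. It was 0.23 for Apoe with Trem2 and −0.69 for Clu with Abcg1.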

How the data were processed

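Droplet 3′ single-cell RNA sequencing gave 2 deposited matrices of raw UMI counts, which the authors made with Cell Ranger. Per the submitters' processing notes its version was 3.0.2, whereas the file headers carry 3.0.2 for sorted brain and 3.1.0 for total brain. The genome was mm10, per the submitters' processing notes, and no source used here says whether counting used strand. The labels give 10x v3 for both samples and the protocol names v2 and v3. The matrices held 0 columns of other samples. The 9 members, the gene lists and the rules were chosen with earlier results of these data known.

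Kept barcodes had 500 or more genes and no more than 10% mitochondrial counts (74.6% of 13499 sorted and 63.8% of 14674 total barcodes). Counts scaled to 10000 per cell and log transformed were clustered over both samples (2000 variable genes, 30 components, 15 neighbours, Leiden resolution 1, and 0.5 for sub-clusters). A cluster was named when at least 50% and at least 3 markers of 1 of 20 lists were raised 2-fold over the remaining clusters, after adding 10 CPM. It stayed unnamed when 80% of another list was raised too, when shallow and not led by its own markers, or when led by another class's markers. Doublets were called with Scrublet, not removed, and called in 1.23% of sorted and 0.0961% of total cells (124 and 9 cells). The alternative without called doublets therefore drops almost only sorted cells. Whether the caller missed doublets in either sample was not tested. Of the disease-associated list, 12 genes were found.

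Log2 ratios add 1 CPM. Genes other than members were named by rule: per list, the 3 largest ratios (or, across classes, highest levels) among genes of at least 50 CPM, and the 3 nearest by Pearson's r. A few genes that the rule names are not reported here. With 1 sample a group there was no test, and suffixes of at least 50 cells gave the ranges. No source says that suffixes are separate animals. The ratio calculation was tested on simulated Poisson counts, the model that the intervals assume, with changes placed in genes of at least 50 CPM. For 2-fold changes of 100 of 12805 genes in microglia-like cells, estimates missed the true log2 ratio by a median of 0.0055. Of the intervals, 96% held the true value. The simulation had no spread between cells or suffixes, so it checks the calculation only and cannot say how well the intervals cover the real spread. Software was Python 3.11.15, scanpy 1.11.5, numpy 2.4.6, scipy 1.17.1, igraph 0.11.9, R 4.3.3 and edgeR 4.0.16 (TMM factors on summed counts only).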

Additional observations from a re-analysis of the deposited data

Results flagged for a closer look

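Apoe was also counted in data outside the comparisons. The 3423 sorted barcodes that the cell filter removed held Apoe at 2219 CPM [2181 to 2259], against 3748 CPM over all kept sorted cells. The 5307 removed barcodes of total brain held it at 2225 CPM [2201 to 2249], against 2364 CPM over all kept total cells. There are no control samples for these barcodes, and both values are far above the level that 3 counts would give.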

How the results depend on the processing

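Of the values that answer a comparison, recomputed under the alternatives, 133 stayed close, 47 moved and 0 reversed, and of the others 634, 115 and 6. Only log2 ratios past 2-fold could count as reversed. Counts of members and levels could only stay close or move, and they make up most of the values that answer a comparison, so the 0 says little. Of 812 values of single members, 25 lost and 23 gained a 2-fold call and 29 changed sign. Apoe in microglia-like cells, total over sorted (2.70), was 2.60 with a looser cell filter, 2.29 with a stricter one, 2.74 with equal weight per suffix, 2.62 at resolution 0.5, 2.74 without mitochondrial and ribosomal protein genes, 2.32 with TMM scaling, and 1.84 to 3.18 when each suffix was left out. Apoe in border macrophage-like over microglia-like cells (4.80) was in the same order 4.63, 4.19, 4.58, 4.05, 4.98, 5.04 and 4.65 to 4.94, and 5.32 with each sample clustered alone and 4.66 with members and list genes used in clustering. Trem2 there (−2.28) was −2.83 at resolution 0.5, −1.76 clustered alone, −2.40 with members in clustering, −2.10 without mitochondrial and ribosomal protein genes, −2.04 with TMM and −2.41 to −2.17 without each suffix. The highest sorted sub-cluster level of Apoe (4868 CPM) was 3374 (looser), 2518 (stricter), 4591 (equal weight), 6394 (resolution 0.5), 4391 (resolution 2), 6034 (without mitochondrial and ribosomal protein genes) and 4424 to 5370 (suffixes left out). The class with the highest level was the same for 9 of 18 combinations of gene and sample when each sample was clustered alone. Total brain then had no class named microglia-like, so Apoe, Lpl, Trem2 and Tyrobp, highest in that class before, had to change there. Members apart in choroid plexus epithelial-like cells (2) were 5 with TMM and 2 to 4 without each suffix, 4 being without suffix 2 of total brain, and in endothelial-like cells (4) they were 7 with the looser filter.

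Within the shared cluster 3, chosen after seeing the data, 2 members were apart in microglia-like cells in place of 6, without a share of all genes to set beside it. Apoe had 4.65 there, and Abca1 (−0.10) and Apoc1 (0.63) reversed. Lrp1 in oligodendrocyte-like cells reversed to −0.13 in the shared cluster 13, also chosen afterwards, as was the endothelial comparison. Clu in oligodendrocyte-like cells reversed to 1.56 with the stricter filter and 0.10 clustered alone, and Apoc1 in border macrophage-like cells to −1.30 without suffix 1 of sorted brain (−1.30 to 2.85 over all suffixes left out). Other causes were not tested. Clustered alone, total brain had no cluster named microglia-like, because markers of border macrophages or neutrophils were raised or leading in the same clusters, so the microglia comparison could not be made there. No paired analysis was possible because each group has 1 sample. Low genes (Apoc1, Lpl outside microglia-like cells) are limited by depth.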

Other observations

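When total brain was clustered alone, 1 cluster of 190 cells had 8 of 8 border macrophage markers and 9 of 10 microglial markers raised. It held 127 cells called microglia-like and 18 called border macrophage-like in the joint clustering. Its Apoe level was 25670 CPM, with 285 CPM of Lpl, 2750 CPM of Trem2 and 5389 CPM of Tyrobp. Another cluster of 339 cells, 312 of them microglia-like in the joint clustering, held 6966 CPM of Apoe and 2359 CPM of Trem2. It had 7 of 8 border macrophage and 7 of 8 neutrophil markers raised, the neutrophil list at 5881 CPM. Another cluster, of 191 cells, 137 of them microglia-like in the joint clustering, held 2153 CPM of Apoe, 1363 CPM of Trem2 and 444 CPM of Tyrobp. It had 10 of 10 microglial and only 1 of 8 neutrophil markers raised, with these lists at 13712 and 417 CPM. It stayed unnamed because its leading genes held more of the neutrophil than of the microglial list.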
